A study of Mus musculus with 16 samples.

Results

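The last interval of a transition of mouse embryonic stem cells out of the naive state was examined by comparing 2 libraries of Day 8 with 2 libraries of Day 4, which are 4 of the 16 libraries of the study. The study tagged CpG sites at which the DNA methyltransferase DNMT1 acted in living cells. The comparison was made by the labelled day alone, over 33073 autosomal RefSeq gene bodies (20665 protein-coding and 12408 lncRNA genes) and 24618 windows of 100 kb on the autosomes. Libraries of Day 0 entered no test reported here except as an alternative that shares their spread.

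Both groups came from E14TG2a, an established mouse embryonic stem cell line, carrying the heterozygous Dnmt1 N1580A knock-in. Day 8 and Day 4 cells had been passaged for that many days in medium with serum and LIF after removal of the 2 kinase inhibitors CHIR99021 and PD0325901 (2i). On both days Ado-6-azide was delivered at 1 mM by electroporation, with DNA taken 3 h later. The remaining wild-type allele leaves an unmarked pool of DNMT1 in the cells, and the labels do not say whether the knock-in line is 1 clone. Nothing says that the replicates were cultured apart, and the p-values then reflect only library-to-library spread, which may be technical. The libraries hold DNA, so the label of embryonic stem cell could not be set against marker expression.

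DNMT1 is the maintenance methyltransferase: with UHRF1, which recognises hemimethylated DNA, it copies CpG methylation onto the newly made strand after replication. Embryonic stem cells kept in 2i are low in DNA methylation, and release from 2i into serum is known to bring methylation up through the de novo enzymes DNMT3A and DNMT3B as well as better maintenance. In these libraries the knock-in enzyme is supplied with a cofactor whose azide group it places on cytosine, and sequencing reads start from tagged sites. A listed position is therefore a CpG with at least 1 read, and its coverage is the number of reads. A listed position is not a methylation level.

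Between the days no gene body, 100 kb window or autosome differed in its scaled number of listed positions past the threshold, while the Day 8 libraries listed more positions in total. With reads, 1 block related to ribosomal RNA genes on chromosome 17 was 2.58 times as high on Day 8 as on Day 4, and it held most reads of the 1 gene and the 1 window called. Promoters of germline genes were listed on both days, at shares that overlapped.

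The Day 8 libraries listed more CpG positions than the Day 4 libraries, with about as many reads. Day 8 replicates 1 and 2 held 3011952 and 2556018 autosomal positions, against 2056936 and 2531636 in Day 4 replicates 1 and 2. The groups did not overlap, but Day 8 replicate 2 and Day 4 replicate 2 lay close together. The ratio of geometric means was 1.22 (2783985 ± 322394 on Day 8, 2294286 ± 335664 on Day 4; SD, n = 2 each). The exact permutation p, two-sided, was 0.333, the smallest value that 2 against 2 libraries allow. Leaving out 1 library at a time gave ratios from 1.10 to 1.35.

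The number of reads overlapped between the days. Autosomal reads were 12399291 and 10356344 on Day 8 and 11817739 and 11773587 on Day 4, a ratio of 0.961 (exact permutation p = 1). Day 8 libraries carried fewer reads per position, with 4.12 and 4.05 against 5.75 and 4.65 on Day 4. The means were 4.08 ± 0.0459 on Day 8 and 5.20 ± 0.774 on Day 4 (SD, n = 2 each), a difference of -1.11 reads (two-sided exact permutation p = 0.333). After thinning every library to 10356344 reads, 2898702 and 2556018 positions remained on Day 8, against 2015326 and 2473512 on Day 4, so the ratio was again 1.22.

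The distribution of reads over positions differed in the same way. Positions with a single read made up 19.6% and 19.7% of those on Day 8, against 14.7% and 17.2% on Day 4. Positions with at least 10 reads made up 5.75% and 5.27% on Day 8, against 16.7% and 8.71% on Day 4. The median was 3 reads in both Day 8 libraries and 5 and 4 reads in the Day 4 libraries. Reads per position were 7.94 and 6.83 on Day 2, 5.75 and 4.65 on Day 4 and 4.12 and 4.05 on Day 8. Reads carry no molecular identifiers, so repeat reads of 1 molecule and reads of separate molecules at a position cannot be told apart.

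**Figure D1:**
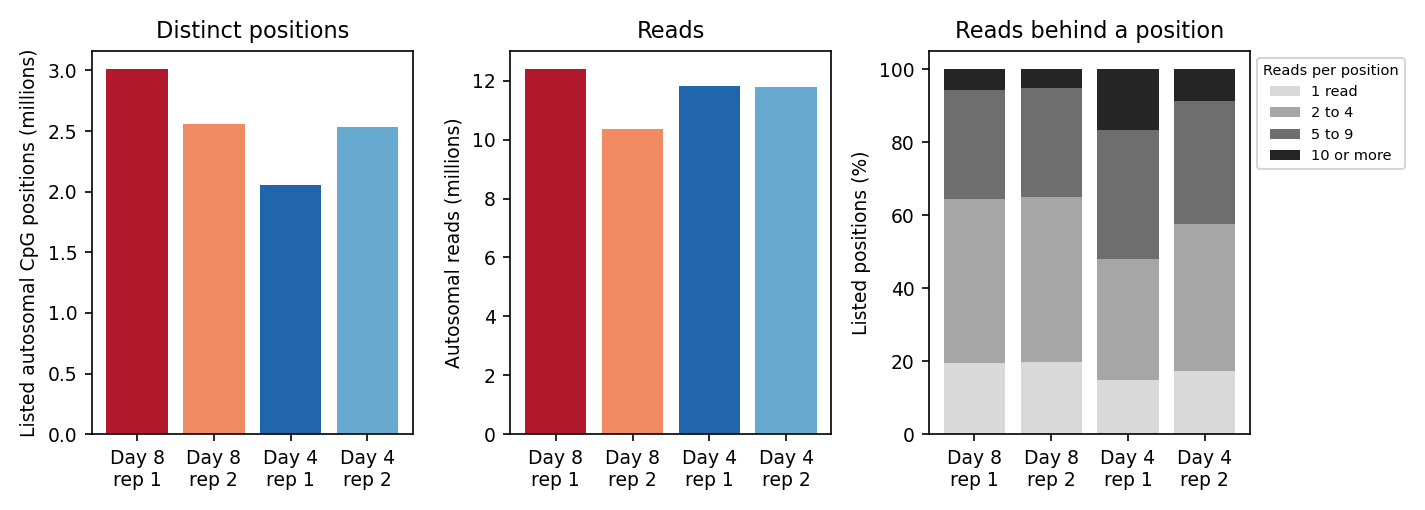
Distinct autosomal positions (left, axis in units of 1e6), autosomal reads (middle, axis in units of 1e6) and the percent of positions with 1, 2 to 4, 5 to 9 and 10 or more reads (right, stacked), each bar 1 library, Day 8 left of Day 4. Both Day 8 libraries lie above both Day 4 libraries in positions, the reads of the 2 days overlap, and positions with 10 or more reads take a smaller share on Day 8.

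Background was small beside these totals. The wild-type control libraries, made from cells without the knock-in, listed 9027 and 3436 autosomal positions. Day 8 replicate 2 stood somewhat apart from the other 3 libraries in where its positions lay: its share of positions was the farthest from the mean of the other 3 on 14 of 19 autosomes.

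Libraries of different days shared positions about as often as libraries of the same day. When each library was thinned to 2056936 positions, the pair of Day 8 libraries shared 14.9% of positions and the pair of Day 4 libraries 15.3%. Pairs made of a Day 8 and a Day 4 library shared between 15.1% and 15.2%. After this thinning, 207914 positions were listed in both Day 8 libraries and in neither Day 4 library, against 213644 in both Day 4 libraries and in neither Day 8 library. The other pairings, each of a Day 8 with a Day 4 library, held between 209381 and 212191 positions. Only 11781 of 6572454 positions (0.179%) were listed in all 4 libraries. Over about 23881 windows of 100 kb, the Spearman correlation was 0.970 between the Day 8 libraries, 0.972 between the Day 4 libraries and 0.969 to 0.972 across days. These values are a description over neighbouring windows that share CpG content.

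Differences in the distribution over classes of sequence were small. Protein-coding gene bodies held 52.1% and 51.3% of positions on Day 8, against 51.9% and 52.1% on Day 4. Sequence outside genes held 40.5% and 41.2% on Day 8, against 40.7% and 40.5% on Day 4. Of 29 classes described by gene type, gene length, place along the chromosome, density and spacing, the shares of the 2 days did not overlap in 6 (20.7%). Apart from the spacing class, the largest difference of means was 0.451 percentage points. It was in the 10% of windows with most positions in the Het triplicate, libraries of the same knock-in genotype outside the comparison. Those windows held 22.1% and 21.0% of positions on Day 8, against 21.9% and 22.1% on Day 4, and only Day 8 replicate 2 was low. In the sparsest 10% of windows the shares were 2.51% and 2.72% on Day 8, against 2.52% and 2.49% on Day 4, and again only Day 8 replicate 2 differed.

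Another listed position lay within 100 bases for 39.2% and 33.6% of positions on Day 8, against 30.4% and 35.0% on Day 4. At equal numbers of positions the shares were 29.9% and 28.6% on Day 8, against 30.4% and 30.1% on Day 4. Both Day 8 libraries then lay below both Day 4 libraries.

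No autosome passed a test of its share of the positions. The log2 differences between Day 8 and Day 4 lay between -0.01 and 0.02, and 0 of 19 autosomes passed edgeR's quasi-likelihood test with Benjamini-Hochberg adjustment (0.0% called, and also 0 of 19 at an unadjusted p under 0.05). Shares of the 2 days did not overlap on 8 of 19 autosomes (42.1%). Without Day 8 replicate 1, 10 of 19 autosomes passed, with Day 8 replicate 2 then standing alone for its day.

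Gene bodies were compared by the number of distinct positions, scaled so that the larger total of Day 8 was taken out. No gene passed: 0 of 22012 genes tested had an adjusted p under 0.05 (0.0%; edgeR's quasi-likelihood test, Benjamini-Hochberg adjustment over all genes tested), and DESeq2 also called 0. At an unadjusted p under 0.05 there were 879 genes (3.99%), 466 higher (2.12%) and 413 lower (1.88%) on Day 8. By DESeq2 there were 14 (0.0636%), so few that its 0 calls add little to those of edgeR. Both Day 8 libraries lay above both Day 4 libraries in 15.8% of genes and below them in 18.1%, together 33.9%. The median log2 change was -0.00, with quartiles at -0.14 and 0.14, and the median standard error was 0.23.

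The counts set how small a change could be seen. The median gene tested held 33.75 positions per library. The 95% interval of the change lay within a 1.5-fold change either way for 10192 genes (46.3%) and within a 2-fold change for 18604 genes (84.5%). On counts simulated for these 22012 genes, the share of altered genes that the test called was 52% at 1.5-fold and 89% at 2-fold. The altered genes were drawn only from those at or above the median count, so these shares do not cover sparser genes. Smaller changes in single genes were mostly not detectable at this depth.

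**Figure D2:**
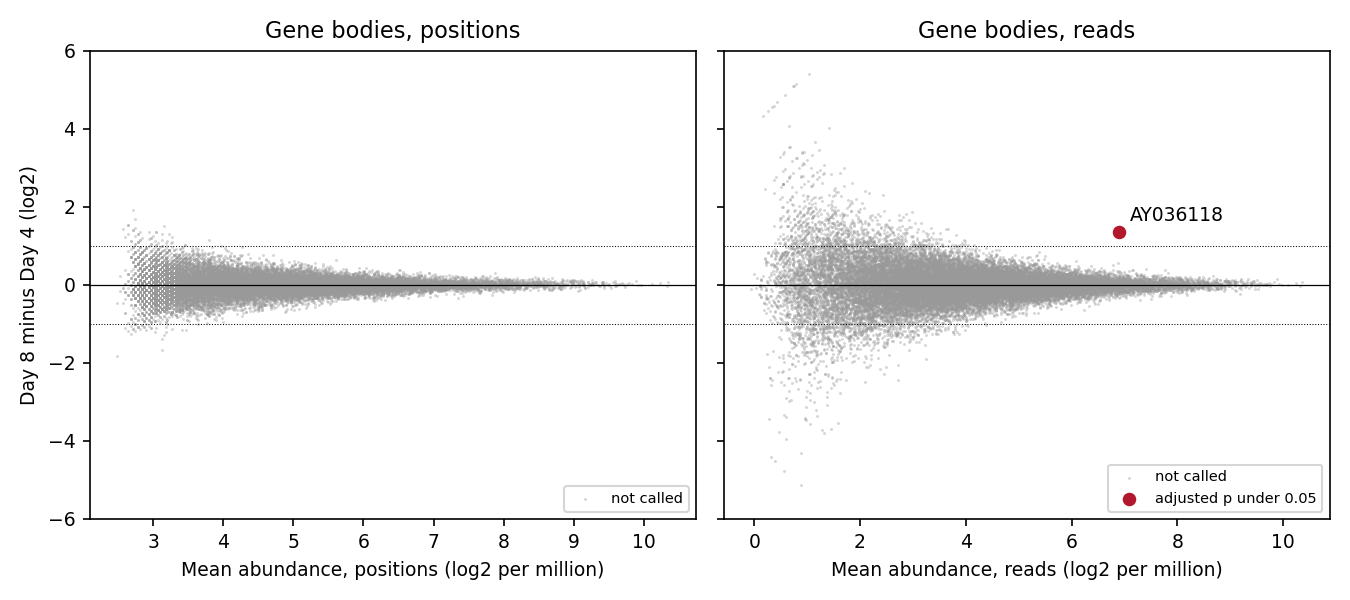
Log2 change per gene body (vertical axis, Day 8 over Day 4) against mean abundance as log2 counts per 1e6 (horizontal axis), for distinct positions (left, 22012 genes) and for reads (right, 28947 genes), each point a gene. Positions are centred on 0 with no gene called, and with reads AY036118 is the 1 gene called.

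Genes of the enzymes of DNA methylation had log2 changes near 0. Dnmt1 held 247 and 165 positions on Day 8, against 151 and 182 on Day 4 (log2 change 0.04). Dnmt3a, a de novo methyltransferase, held 275 and 212 on Day 8, against 186 and 242 on Day 4 (-0.08). Dnmt3b, another de novo enzyme, held 93 and 75 on Day 8, against 60 and 71 on Day 4 (0.09). The log2 changes are scaled for the larger totals of Day 8, so raw counts can be higher where the change is near 0. Tet1, which oxidises methylcytosine, held 173 and 157 positions on Day 8, against 132 and 147 on Day 4 (-0.03). Of 22 tested genes of DNA methylation and demethylation, 0 were called and the median log2 change was -0.02, against -0.00 over all genes. One of them, Mbd3, a subunit of the NuRD complex, had an unadjusted p under 0.05 on few positions, 17 and 11 on Day 8 against 4 and 8 on Day 4.

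No gene of the naive or primed state was called. Esrrb, a nuclear receptor of the naive network, held 363 and 323 positions on Day 8, against 267 and 353 on Day 4 (log2 change -0.12). Of 12 tested naive pluripotency genes 0 were called, with a median log2 change of -0.05, and of 13 tested formative and primed genes 0 were called, with a median of 0.03. The naive median was -0.15 without Day 4 replicate 1, and the formative and primed median was below 0 in 3 of the 4 fits that left out a library, at -0.10 without Day 8 replicate 1. The short pluripotency genes held too few positions for the test. Nanog held 10 and 9 positions on Day 8 and 9 and 8 on Day 4, Klf4 held 4 and 6 on Day 8 and 5 and 4 on Day 4, and Pou5f1 (the gene of OCT4) held 5 and 1 on Day 8 and 2 and 2 on Day 4. Otx2, a transcription factor of primed cells, held 10 and 10 positions on Day 8 and 6 and 7 on Day 4. Sox2, a transcription factor of both states, had 0 positions in all 4 libraries.

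Of 23 genes taken for their roles or length whatever their values, 18 had enough positions to be tested. All 18 had a 95% interval within a 1.5-fold change either way, with log2 changes from -0.12 to 0.19. Of the 23, the groups did not overlap for 6, which were Dnmt3b, Esrrb, Csmd3, Dlg2, Tenm3 and the untested Otx2, where they did not for 33.9% of all genes tested. The 2 with an unadjusted p under 0.05 were both long genes. Csmd3, a giant gene of a transmembrane protein with CUB and sushi domains, held 479 and 476 positions on Day 8, against 327 and 370 on Day 4 (log2 change 0.19, or 0.06 without Day 8 replicate 2). Dlg2, a postsynaptic scaffold, held 1160 and 1070 on Day 8, against 773 and 923 on Day 4 (0.13, or 0.06 without Day 8 replicate 2). Both had an adjusted p of 0.999 by edgeR's quasi-likelihood test.

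The genes with the smallest unadjusted p are given as values only, since none passed. Sgcz, which encodes zeta-sarcoglycan (chr8:37517840-38661705, mm10), held 443 and 453 positions on Day 8, against 286 and 322 on Day 4. Scaled to 1e6 listed positions a library, these were 147 and 177 per 1e6 positions on Day 8, against 139 and 127 on Day 4. The 2 days were separate, with Day 8 replicate 2 farther above. The log2 change was 0.29 (SE 0.077), and it was called only without Day 8 replicate 1 (log2 change 0.44, adjusted p = 0.0237 by edgeR's quasi-likelihood test). Without Day 8 replicate 2 the log2 change of Sgcz was 0.15 (adjusted p = 0.999 by the same edgeR test).

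Other genes on the higher side were Gask1b and Dcc. Gask1b, a Golgi-associated kinase family member, held 99 and 99 positions on Day 8, against 48 and 58 on Day 4 (log2 change 0.63). Dcc, the netrin receptor of axon guidance, held 646 and 645 on Day 8, against 408 and 521 on Day 4 (0.21, or 0.08 without Day 8 replicate 2). For both the groups did not overlap in positions per 1e6.

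On the lower side, Lrp1, a large endocytic receptor, held 405 and 326 positions on Day 8, against 311 and 416 on Day 4, which were 134 and 128 per 1e6 on Day 8 against 151 and 164 on Day 4 (log2 change -0.26). Cldn11, a tight-junction claudin, held 46 and 31 on Day 8, against 48 and 55 on Day 4 (-0.69). Flnc, an actin-crosslinking filamin, held 42.5 and 43.8 positions per 1e6 on Day 8, against 57.4 and 56.5 on Day 4. In positions per 1e6 both Day 8 libraries lay below both Day 4 libraries for each of these genes, and each had an adjusted p of 0.999 by edgeR's quasi-likelihood test, as had Sgcz, Gask1b and Dcc.

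Long genes lay slightly higher on Day 8, and less so without Day 8 replicate 2. The 221 genes over 500 kb had a median log2 change of 0.06, against -0.02 in the 4446 genes under 10 kb and -0.00 over all genes. Both Day 8 libraries lay above both Day 4 libraries for 68 of the 221 (30.8%) and below for 17 (7.69%), against 15.8% and 18.1% over all genes. Without Day 8 replicate 2 the median was 0.01, with 124 of 221 genes higher, and without Day 8 replicate 1 it was 0.10. Bodies over 500 kb held 5.85% and 6.07% of positions on Day 8, against 5.80% and 5.81% on Day 4. Of reads they held 5.74% and 6.02% on Day 8, against 5.74% and 5.71% on Day 4, and only Day 8 replicate 2 stood apart.

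Long cell adhesion genes gave similar values; they are contactins, cadherins, teneurins and other surface proteins of neurons. Of 40 tested, 0 were called. The unadjusted p was under 0.05 for 11, all higher on Day 8, where 2.12% of all genes were. The groups did not overlap for 13 higher and 3 lower, a share of higher genes near the 30.8% among genes over 500 kb. Lrp1b, a giant lipoprotein receptor, held 867 and 798 positions on Day 8, against 566 and 672 on Day 4 (log2 change 0.16). Mdga2, a membrane-anchored modulator of synaptic adhesion, held 411 and 384 on Day 8, against 241 and 332 on Day 4 (0.20). Tenm3, a teneurin, had 706 and 709 positions per 1e6 on Day 8, against 700 and 697 on Day 4. Summed over the list, positions per 1e6 were 11220 and 11766 on Day 8, against 11052 and 11136 on Day 4 (11493 ± 386 on Day 8 and 11094 ± 59.7 on Day 4; SD, n = 2 each). The list's median log2 change was 0.08, or 0.02 without Day 8 replicate 2 and 0.15 without Day 8 replicate 1. Channels and synaptic scaffolds, also long genes, had 5 of 38 at an unadjusted p under 0.05, all higher, and a median of 0.05 that was 0.01 without Day 8 replicate 2.

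Clustered protocadherins, neuronal surface proteins encoded in tandem on chromosome 18, had separate sums on the 2 days. Their sums per 1e6 positions were 2633 and 2560 on Day 8, against 2481 and 2422 on Day 4. Both Day 8 libraries lay above both Day 4 libraries for 21 of 38 tested members and below for 0, against 15.8% and 18.1% over all genes. The members had a median log2 change of 0.09 and 0.09 again without Day 8 replicate 2. None was called at an adjusted p under 0.05, and 0 had an unadjusted p under 0.05. The members overlap one another and share positions, so 21 is not a count of separate observations. In reads the median was 0.02, and the sums went the other way, with a difference of means, Day 8 minus Day 4, of -9.68 reads per 1e6.

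Over 22 lists of genes, 0 of 746 tested members were called with positions or reads. The sums of 8 lists (36.4%) did not overlap between the days, 7 higher and 1 lower on Day 8. Hox genes, developmental regulators held by Polycomb in stem cells, were the lower one, with 187 and 182 positions per 1e6 on Day 8, against 195 and 208 on Day 4. Their 12 tested members had a median log2 change of -0.15, the lowest of all lists, and it was 0.01 without Day 8 replicate 1. Hoxd4 was the only one with an unadjusted p under 0.05, at 17 and 11 positions on Day 8 against 14 and 24 on Day 4. Imprinted genes, FGF and MAPK genes and GSK3 and Wnt genes had medians of 0.01, 0.00 and 0.03, and markers of endoderm, mesoderm and ectoderm of 0.01, 0.01 and 0.05. List sums differed by -8.40% to 14.1%, the extremes being Hox genes and the sparse ribosomal and housekeeping genes, at 90.6 and 93.9 per 1e6 on Day 8 against 72.9 and 88.9 on Day 4.

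**Figure D3:**
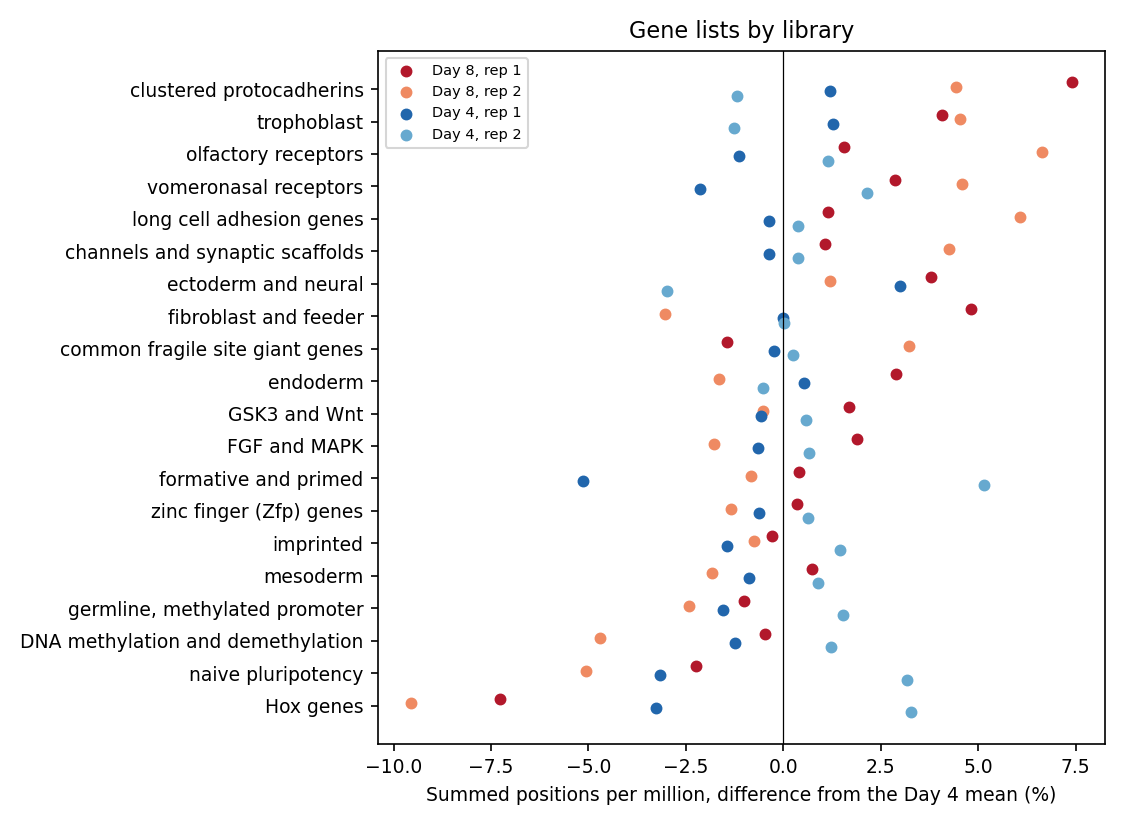
Summed positions per 1e6 of each library, as the percent difference from the Day 4 mean (horizontal axis), for the 20 gene lists with a Day 4 mean of at least 150 per 1e6, each point 1 library with Day 8 above Day 4. By the percent difference of the means, clustered protocadherins lie highest (5.91%, from 2633 and 2560 per 1e6 on Day 8) and Hox genes lowest (-8.40%, from 187 and 182).

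Reads per gene body singled out 1 gene of 28947 (0.00345%), the lncRNA gene AY036118 on chromosome 17, which is described with the ribosomal block below. At an unadjusted p under 0.05 there were 1283 genes (4.43%), 649 higher (2.24%) and 634 lower (2.19%) on Day 8. The reads were more variable than the positions, with a 95% interval within a 2-fold change for 14617 genes (50.5%). On simulated reads the test called 12% of the altered genes at 1.5-fold and 62% at 2-fold, again with altered genes at or above the median count only.

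Windows of 100 kb held more positions each than gene bodies, and their intervals were narrower. Of 23669 windows tested 0 were called (0.0%), and 1035 (4.37%) had an unadjusted p under 0.05. DESeq2 called 0, with only 30 (0.127%) at an unadjusted p under 0.05. The 95% interval lay within a 1.5-fold change for 19310 windows (81.6%) and within a 2-fold change for 23357 (98.7%). On simulated counts 86% of windows changed 1.5-fold were recovered, all of them drawn from windows at or above the median count. The window with the highest value among those named was chr10:9600001-9700000, over Samd5, with 138 and 112 positions on Day 8, against 60 and 81 on Day 4 (log2 change 0.54). On the lower side was chr18:42400001-42500000, with 146 and 125 on Day 8, against 150 and 162 on Day 4 (-0.49, adjusted p = 0.491 by edgeR's quasi-likelihood test). The window chr3:53000001-53100000, over Cog6 and Lhfp, had 149 and 109 positions on Day 8, against 131 and 158 on Day 4 (-0.45). With reads it was the lowest of the windows named, at 541 and 448 on Day 8 against 867 and 764 on Day 4 (-0.68, adjusted p = 0.0781 by the same test).

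Promoters, where the sequence at each listed position can be read, were examined from 250 bases before to 50 after each gene start. All 38178 promoter positions listed, counted separately in each of the 4 libraries, lie on the C of a CG. At equal numbers of positions, promoters with 1 to 5 CpGs had 11.1% and 11.1% of their 31161 CpGs listed on Day 8, against 11.0% and 11.0% on Day 4. Promoters with 6 to 15 CpGs had 5.97% and 5.66% of 63972 listed on Day 8, against 5.49% and 5.87% on Day 4. In promoters with 16 or more CpGs the share was 0.217% and 0.215% of 254445 on Day 8, against 0.206% and 0.222% on Day 4. Without thinning, 821 and 661 CpGs of this class were listed on Day 8 and 525 and 700 on Day 4. The wild-type controls listed 157 and 34 of them, so background was not small in this class. Only in the sparsest class did both Day 8 libraries lie above both Day 4 libraries, and dense promoters had the lowest share in every library.

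**Figure D4:**
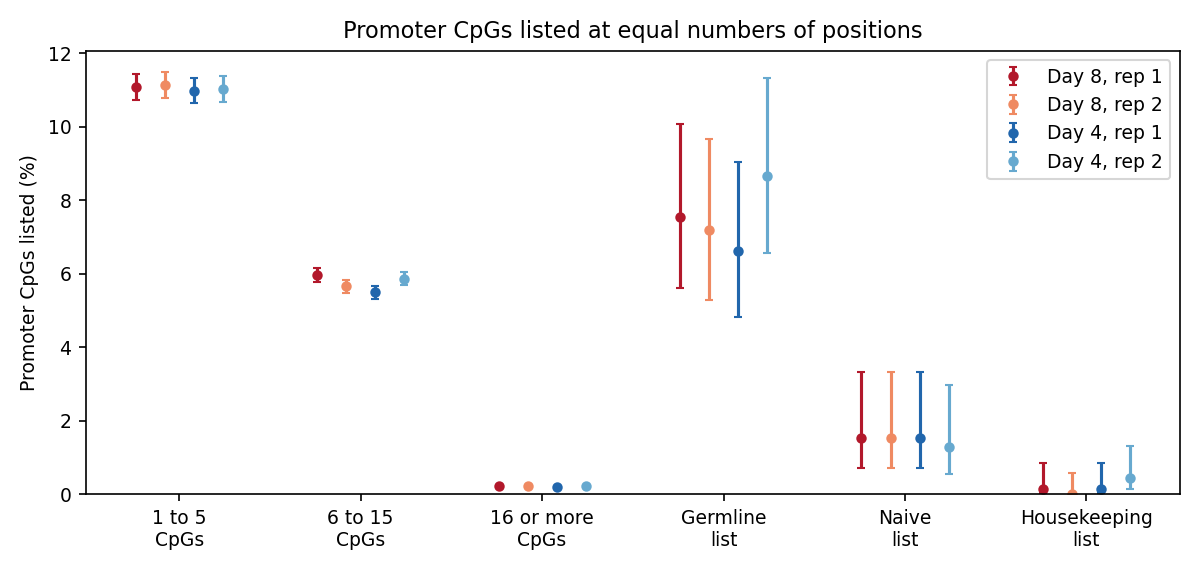
Percent of promoter CpGs listed at equal numbers of positions (vertical axis) in each library of Day 8 (left) and Day 4 (right), for promoters of 3 CpG classes and of the germline, naive and housekeeping lists, with Wilson 95% intervals that cover counting error only. The germline promoters lie near 7% on both days although they are rich in CpGs.

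Promoters of germline genes, many of which are known to be methylated in somatic cells, had a higher share. Their 543 CpGs, a median of 21 per promoter in 30 promoters of 24 genes, were listed at 7.55% and 7.18% on Day 8, against 6.63% and 8.66% on Day 4, and the days overlapped. Over all promoters 2.24% and 2.18% of 349578 CpGs were listed on Day 8, against 2.13% and 2.22% on Day 4. Promoters of ribosomal and housekeeping genes had 1 and 0 of 673 CpGs listed on Day 8, against 1 and 3 on Day 4, and a count of 0 allows a share of up to 0.446%. The wild-type controls listed 1 and 0 of the germline CpGs, and 1 and 2 of the ribosomal and housekeeping CpGs. Without thinning, the day libraries listed 2 and 0 of the housekeeping CpGs on Day 8 and 1 and 3 on Day 4. The housekeeping counts were thus at the level of the controls. The germline list was made for its known promoter methylation, so its level beside other promoters is a description.

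The promoters of Tex101, Sycp1, Dazl, Nrap and Dnmt3b are printed as examples of these kinds, chosen after their values were seen, from RefSeq on build GRCm38.p6, 5′ to 3′ on the gene's strand, with capitals at CpGs listed in at least 1 of the 4 libraries. Tex101, a germ-cell surface protein (chr7:24672001-24672300, minus strand), Sycp1, a component of the synaptonemal complex (chr3:102936051-102936350, minus strand), and Dazl, a germ-cell RNA-binding protein (chr17:50293571-50293870, minus strand), are germline promoters. Nrap, a muscle protein among the genes with the smallest p (chr19:56389989-56390288, minus strand), has 8 CpGs in its promoter, in the class of 6 to 15. Dnmt3b (chr2:153649199-153649498, plus strand) has a dense promoter without a listed CpG.
Tex101: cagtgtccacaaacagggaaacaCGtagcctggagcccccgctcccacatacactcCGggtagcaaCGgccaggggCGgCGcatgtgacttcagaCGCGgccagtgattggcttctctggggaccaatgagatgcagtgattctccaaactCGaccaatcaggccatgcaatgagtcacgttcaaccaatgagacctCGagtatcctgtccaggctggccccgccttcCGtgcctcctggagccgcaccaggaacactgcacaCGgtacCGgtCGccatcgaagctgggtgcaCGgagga
Sycp1: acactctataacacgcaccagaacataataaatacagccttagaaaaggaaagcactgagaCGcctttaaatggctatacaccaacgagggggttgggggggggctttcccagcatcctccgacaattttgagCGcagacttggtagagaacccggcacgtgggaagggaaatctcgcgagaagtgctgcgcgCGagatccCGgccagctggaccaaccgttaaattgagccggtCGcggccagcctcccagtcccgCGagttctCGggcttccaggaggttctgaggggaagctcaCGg
Dazl: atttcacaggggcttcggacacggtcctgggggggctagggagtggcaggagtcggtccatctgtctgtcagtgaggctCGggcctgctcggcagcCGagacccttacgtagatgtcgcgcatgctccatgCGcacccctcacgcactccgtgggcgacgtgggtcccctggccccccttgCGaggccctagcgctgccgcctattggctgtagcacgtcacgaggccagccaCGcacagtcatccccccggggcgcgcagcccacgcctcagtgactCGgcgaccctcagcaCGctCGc
Nrap: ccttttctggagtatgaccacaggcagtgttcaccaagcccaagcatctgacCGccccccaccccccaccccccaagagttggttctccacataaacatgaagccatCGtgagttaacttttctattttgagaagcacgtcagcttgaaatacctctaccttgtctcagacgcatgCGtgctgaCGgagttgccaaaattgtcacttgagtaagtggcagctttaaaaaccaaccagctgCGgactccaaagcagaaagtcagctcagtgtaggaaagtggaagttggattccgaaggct
Dnmt3b: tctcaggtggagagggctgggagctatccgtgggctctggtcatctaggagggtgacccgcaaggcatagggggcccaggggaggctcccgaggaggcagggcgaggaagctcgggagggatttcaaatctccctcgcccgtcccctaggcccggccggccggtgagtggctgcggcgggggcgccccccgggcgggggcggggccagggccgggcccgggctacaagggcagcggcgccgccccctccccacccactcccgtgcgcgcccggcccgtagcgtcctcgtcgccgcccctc
In Tex101, 14 of 19 CpGs were listed in at least 1 library, 7 and 4 on Day 8 and 3 and 7 on Day 4. Sycp1 had 4 and 3 of 21 CpGs listed on Day 8, against 2 and 3 on Day 4, and Dazl had 1 and 2 of 28 on Day 8, against 3 and 2 on Day 4. Nrap had 2 and 3 of 8 listed on Day 8, against 2 and 3 on Day 4. Dnmt3b had 0 of 30 in every one of the 4 libraries, which in 1 library allows a share of up to 10%.

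Most reads of the 1 gene and the 1 window called lay in a 6 kb block related to ribosomal DNA on chromosome 17, chr17:39843001-39849000. The block covers Rn18s-rs5, a pseudogene related to the RNA of the small ribosomal subunit (chr17:39846354-39848202), and the edge of AY036118 (chr17:39848112-39898385). Its extent was taken from the Het libraries, outside the comparison. It held 10283 and 6757 reads on Day 8, against 3187 and 3596 on Day 4. These were 829 and 652 per 1e6 reads on Day 8, against 270 and 305 on Day 4 (741 ± 125 on Day 8 and 288 ± 25.3 on Day 4; SD, n = 2 each). The days were widely separate, at a ratio of means of 2.58, and the ratios of single libraries ran from 2.14 to 3.08 (two-sided exact permutation p = 0.333, the smallest possible).

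The block had 19.3 and 13.4 reads per position on Day 8, against 9.54 and 8.81 on Day 4, while over all autosomes Day 8 had fewer. Its positions were 532 and 504 on Day 8, against 334 and 408 on Day 4, or 177 and 197 per 1e6 positions on Day 8 and 162 and 161 on Day 4. In any of the 4 libraries 558 block positions were listed. The number of CpGs in the block was not counted, and whether it limits the number of positions was not tested. Of 260 block positions listed in all 4 libraries, 142 had both Day 8 libraries above both Day 4 libraries in reads per 1e6, and 5 had both below. All 6 bins of 1 kb differed in the same direction, with ratios between 2.42 and 2.81. Among all 100 kb windows tested with reads, both Day 8 libraries lay above in 18.2% and below in 15.7%. The block was described because its reads were called in these same 4 libraries. The counts of positions and bins therefore restate that call and are no separate evidence. Reads from near-identical copies of the repeat may be placed here, so the values belong to the block as mapped.

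The 100 kb window around the block was the only one called with reads, 1 of 23775 (0.00421%), where 4.93% of windows had an unadjusted p under 0.05. Its log2 change was 1.34 (SE 0.126, adjusted p = 4.9e-15 by edgeR's quasi-likelihood test with Benjamini-Hochberg adjustment), and the block held between 96.3% and 99.2% of its reads in the 4 libraries. AY036118 held 1490 and 1005 reads on Day 8, against 474 and 531 on Day 4 (log2 change 1.36, adjusted p = 9.5e-08 by the same test). Between 85.1% and 96.0% of those reads fell within the block, and outside it AY036118 held 59 and 61 reads on Day 8, against 25 and 79 on Day 4. When reads were capped at 10 per position the gene was no longer called (log2 change 0.83, adjusted p = 0.114), while the window was (log2 change 0.79, adjusted p = 5.67e-07). With the Day 0 and Day 2 libraries in the fit and sharing its spread, neither was called (log2 change 1.36, SE 0.20 and adjusted p = 1 for AY036118, log2 change 1.33, SE 0.21 and adjusted p = 1 for the window, by edgeR's quasi-likelihood test). With Day 2 alone added both were called.

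In the other libraries the block had 200 and 138 reads per 1e6 on Day 0 and 96.2 and 153 on Day 2. In reads per 1e6, Day 0 and Day 2 overlapped, and both lay below both later days. The Het triplicate had 655, 763 and 857, close to the 652 and 829 of Day 8. Positions gave another order, with 404 and 180 per 1e6 positions on Day 0 and 104 and 137 on Day 2. Both Day 0 libraries thus lay above the 162 and 161 of Day 4, and they overlapped the 177 and 197 of Day 8. Of 2410 windows of 1 Mb, 2 were called with reads (0.083%), the one around the block and chr2:98000001-99000000, which had 11145 and 10573 reads on Day 8, against 9107 and 8554 on Day 4 (log2 change 0.35, adjusted p = 0.00174 by edgeR's quasi-likelihood test). Within it, chr2:98600001-98700000 held 780 and 908 reads per 1e6 on Day 8, against 650 and 630 on Day 4. These lay on few positions, 95 and 90 on Day 8 and 95 and 89 on Day 4. The Het triplicate had 127 reads per position there. In the wild-type controls 151 and 62 reads fell in the block, which made 6679 and 7693 per 1e6 of their few reads. The part of such background reads in the difference between the days was not tested.

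**Figure D5:**
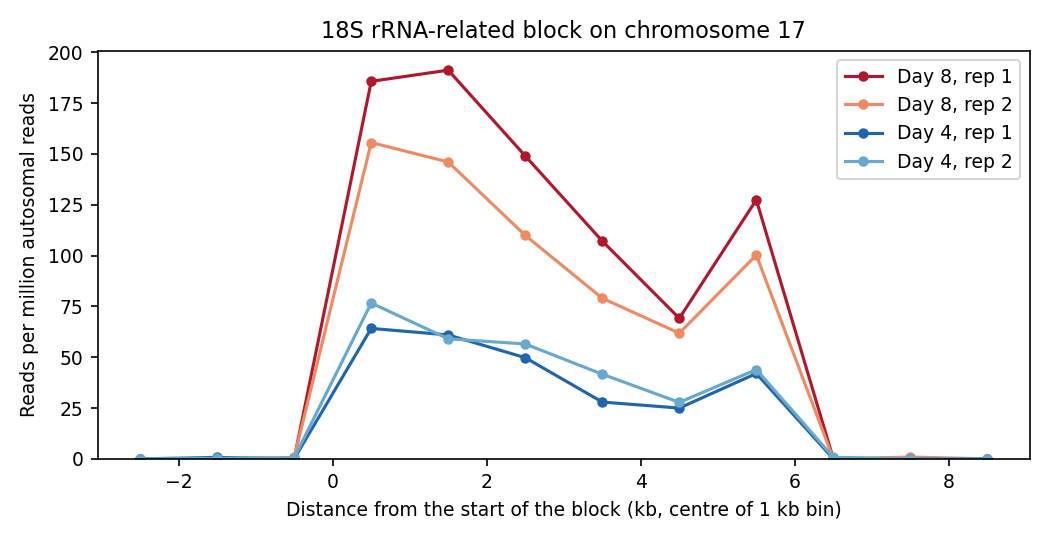
Reads per 1e6 autosomal reads (vertical axis) in bins of 1 kb along the block on chromosome 17 (horizontal axis, kb from the block's start), 1 line per library of Day 8 and Day 4. Both Day 8 lines lie above both Day 4 lines in all 6 bins of the block.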

How the data were processed

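Libraries were made from DNA of azide-labelled cells by tethered oligonucleotide-primed sequencing, starting from 900 ng of sonicated DNA, per the labels' protocols. Reads were handled with cutadapt 4.4, SAMtools 1.12 and BWA 0.7.17-r1188 on build mm10, per the submitters' processing notes. For parameters and any duplicate filter, the sources used here give nothing. Each library's table, as deposited, lists chromosome, position and coverage, a raw count of reads of at least 1. Unlisted positions were taken as 0.

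Positions and reads were summed per RefSeq gene body (GRCm38.p6, whose coordinates are those of mm10) and per 100 kb window. Of the gene bodies, 38.6% overlap another, so shared sites count for each, and 189 annotated bodies that end before base 3000000 hold no listed position. The fits used edgeR 4.0.16 under R 4.3.3 (filterByExpr, TMM, glmQLFit, glmQLFTest) on the 4 libraries, with Benjamini-Hochberg adjustment at 0.05, and DESeq2 1.42.0 as an alternative. For totals, exact permutation tests were two-sided (Python 3.11.15, scipy 1.17.1, numpy 2.4.6, pandas 2.3.3; plots with matplotlib 3.10.9). The edgeR fits of gene bodies and 100 kb windows were tested on simulated data. Other alternatives were library totals, no filter, thinning, Day 2 or Day 0 and Day 2 added, a replicate block, each library left out, and, after seeing the data, a cap of 10 reads per position, 1 Mb windows and a second thinning draw.

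Named genes were the 10 smallest unadjusted p each way among genes at or above the median abundance with separate groups (none was called), predicted names and the weaker of overlapping bodies left out, 2 members per list and 23 fixed genes; only some are printed, and a few are not reported here. The members and lists were chosen with earlier results of these data known. Intervals on shares are Wilson intervals and cover counting error only. The share that a count of 0 allows is instead 3 divided by the number of CpGs.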

Additional observations from a re-analysis of the deposited data

How the results depend on the processing

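Of the results that answer a comparison, 65 recomputed values kept their direction and stayed within the limits set for a change, 13 moved and 1 reversed. Genes called by positions numbered 0 in the main fit and 0 to 1 with a library left out (1 without Day 8 replicate 1, Sgcz). Genes called by reads numbered 1, but 0 with Day 0 and Day 2 added, 0 with reads capped at 10 per position, and 1 to 29 with a library left out (3 without Day 4 replicate 1, 29 without Day 4 replicate 2). Windows called by reads numbered 1, against 2 with DESeq2, 0 with Day 0 and Day 2 added, 2 with 1 Mb windows and 1 to 7 with a library left out (2 without Day 8 replicate 1, 7 without Day 4 replicate 2). Autosomes called numbered 0, and 0 to 10 with a library left out. The ratio of total reads, 0.961, was 1.05 without Day 8 replicate 2 and ranged from 0.878 to 1.05. Classes with separate shares numbered 6 by positions and 3 by reads. The difference in reads per position ranged from -0.566 to -1.66 with a library left out. The causes were not tested.

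Replicate differences of the 2 days correlated at -0.016 over genes for positions and -0.010 for reads. Most genes hold few positions and counting noise can hide a shared difference, so these values do not settle whether replicate numbers pair the libraries. The labels do not say. With the replicate block, windows called by reads numbered 2, adding chr3:53000001-53100000 (log2 change -0.68, adjusted p = 0.0442 by edgeR's quasi-likelihood test). Depth limits the test most in short genes.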

Other observations

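Promoters of chemosensory receptor genes, which hold few CpGs, had the highest shares of listed CpGs in Day 8 replicate 2. At equal numbers of positions, olfactory receptor promoters had 9.31% and 12.1% of 1203 CpGs listed on Day 8, against 8.98% and 9.14% on Day 4. Vomeronasal receptor promoters had 2.50% and 5.63% of 480 listed on Day 8, against 2.50% and 3.54% on Day 4. Promoters of zinc finger genes had 0.447% and 0.763% of 5372 listed on Day 8, against 0.428% and 0.596% on Day 4. In each of these 3 lists Day 8 replicate 1 lay close to Day 4 replicate 1 and Day 8 replicate 2 was the highest library.

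The window chr2:98600001-98700000 was called with reads by DESeq2 (log2 change 0.39, adjusted p = 0.0110). In the main fit edgeR's quasi-likelihood test did not call it at the same window size. Without Day 8 replicate 1 its log2 change by edgeR was 0.48.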
